A study of Mus musculus with 2 samples.

Results

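Laminin-332 is the laminin that anchors epithelial cells to their basement membrane, and 6 of the 32285 genes in the deposited matrices that encode chains of it, its integrin receptors and an activator of those receptors were followed here: Lama3, Lamb3, Itga3, Itga6, Itgb4 and Fermt1. They were taken by gene symbol, and their unique molecular identifiers (UMIs, counts of captured RNA molecules) were summed by cell class in each library. Single cells came from orthotopic pancreatic tumours of mice, grown from KPC cells, a mouse pancreatic cancer line, that had been given a control vector (KPC-shV) or a Zeb1-targeting hairpin (KPC-shZEB1). There was 1 tumour and 1 library per group, so mouse, tumour, library and group cannot be told apart, no test between groups was possible, and every interval below is a 95% interval for counting error only. According to the study, the tumours taken for single-cell sequencing came from gemcitabine-treated mice in both groups. The labels do not mention this treatment. The labels give neither strain, age nor sex of the hosts. Levels are given as CPM, the UMIs of a gene scaled to the same total in every class.

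Laminin-332 is a trimer, in which Lama3 encodes the alpha chain and Lamb3 the beta chain. Cells bind it through integrin alpha6beta4 (Itga6 and Itgb4), which nucleates hemidesmosomes and links through plectin to keratin filaments, and through integrin alpha3beta1 (Itga3 and Itgb1), which links to actin. Fermt1 encodes kindlin-1, an epithelial adaptor that binds integrin beta tails and, together with talin, activates integrins. In the pancreas these proteins are best known from duct epithelium and from duct-derived carcinoma, while Zeb1 is a repressor of epithelial genes that binds E-box sequences.

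Per the GENCODE M21 annotation of GRCm38, all 6 are protein-coding genes. Lamb3 lies at chr1:193207699-193343878 (forward), Itga3 at chr11:95044474-95076801 (reverse), Itga6 at chr2:71745616-71858416 (forward), Itgb4 at chr11:115974709-116008412 (forward) and Fermt1 at chr2:132904389-132945906 (reverse). Promoter sequence of Lamb3, Itga3 and Fermt1 was in the RefSeq promoter table (GRCm38.p6), which covers 250 bases before to 50 after a start. Lama3, Itga6 and Itgb4 were matched to no entry there. The windows were searched for CAGGTG, an E-box that Zeb factors bind, and for the same motif read on the opposite strand, CACCTG. It was present in 20.2% of 32851 windows of this length, and 2.88% held at least 2 copies. One Lamb3 window, at its more 3′ RefSeq start, held 2 copies and one Itga3 window held 1, while the remaining Lamb3 and Itga3 windows and the Fermt1 window held none. The windows with a match are shown 5′ to 3′ on the strand of the gene, with the matches in capitals, because they place the motif beside the starts of the genes measured below.
Lamb3, chr1:193301993-193302292, forward: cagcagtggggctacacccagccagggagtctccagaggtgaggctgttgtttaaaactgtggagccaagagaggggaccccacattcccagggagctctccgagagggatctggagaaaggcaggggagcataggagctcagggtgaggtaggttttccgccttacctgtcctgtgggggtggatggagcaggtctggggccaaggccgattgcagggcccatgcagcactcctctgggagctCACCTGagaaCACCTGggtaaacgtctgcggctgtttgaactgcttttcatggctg
Itga3, chr11:95076665-95076964, reverse: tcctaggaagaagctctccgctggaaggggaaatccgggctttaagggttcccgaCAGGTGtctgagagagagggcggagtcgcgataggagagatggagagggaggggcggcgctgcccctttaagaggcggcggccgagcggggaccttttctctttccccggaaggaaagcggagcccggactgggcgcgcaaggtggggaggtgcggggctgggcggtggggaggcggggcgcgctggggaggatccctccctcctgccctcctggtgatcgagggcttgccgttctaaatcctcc
Such a match describes the letters only, and no binding was measured.

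The Lamb3 gene model needs care. Of its 9 annotated transcripts, 4 begin within 51 bases of the annotated gene start, and the transcripts beginning near the RefSeq promoters lie 94.3 kb further on. The upstream starts are 5996 to 6047 bases from the start of Traf3ip3, a lymphocyte gene read in the opposite direction. The longest transcript, Lamb3-209, runs over Hsd11b1 and G0s2, which lie on the opposite strand. Lamb3-207 starts 121 bases from G0s2. UMIs were deposited per gene, so its transcripts cannot be told apart.

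**Figure D1:**
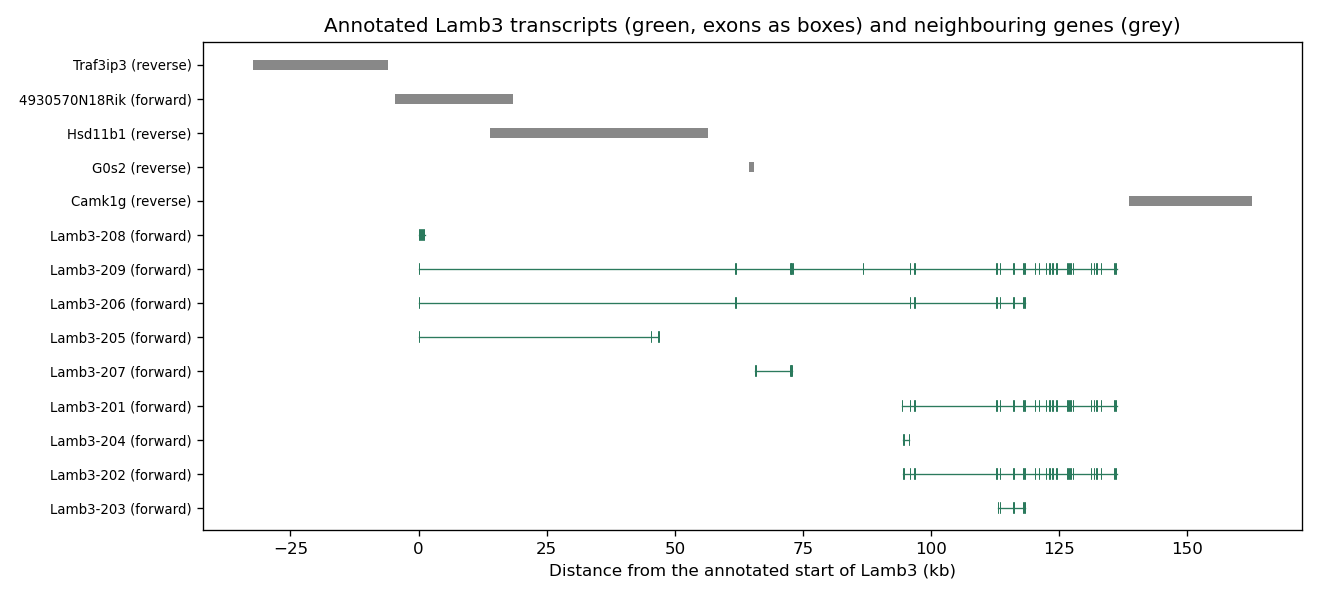
Annotated transcripts of Lamb3 (green lines, exons as boxes) and neighbouring genes (grey bars, strand in brackets), as distance in kb from the annotated start of Lamb3. The full-length transcripts Lamb3-201 and Lamb3-202 start 94.3 and 94.5 kb into the gene, beyond Hsd11b1 and G0s2, while Lamb3-209 spans all of it.

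Clustering gave 32 clusters and 10 classes with at least 50 cells in each library, named by marker genes. The 6 genes were kept out of the genes used for clustering. The KPC-shV-labelled library kept 11398 of 12594 barcodes (130941086 UMIs before filters) and the KPC-shZEB1-labelled library 12104 of 13271 (143461224 UMIs), and 46 barcode sequences occurred in both. Tumour-like cells were split by Epcam, an epithelial adhesion molecule. A cluster counted as Epcam-high when its Epcam level was at least 0.5 of that in the top cluster. The top cluster, of 34 cells led by Mmp7 and Dcdc2a, was at 1252 CPM, the main Epcam-high cluster was at 819 CPM, and the nearest cluster below the limit, of 23 cells from the KPC-shV-labelled library, was at 551 CPM. There were 473 and 518 Epcam-high cells and 962 and 869 Epcam-low cells in the KPC-shV- and KPC-shZEB1-labelled libraries. Of the tumour markers, 8 (Cdh1, Cldn4, Cldn7, Epcam, Krt7, Krt8, Krt18 and Krt19) were plainly higher in Epcam-high than in Epcam-low cells of both libraries. Sox9 was lower, at 132 against 196 CPM and 129 against 162 CPM.

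Zeb1, the target of the hairpin, was not lower in the KPC-shZEB1-labelled library. It was at 113 against 134 CPM in Epcam-high cells (ratio 1.19, interval 1.11 to 1.27) and at 201 against 225 CPM in Epcam-low cells (1.12, 1.07 to 1.16). These counts therefore do not show a loss of Zeb1 RNA under that label. Whether intron reads were counted was not stated in the sources used here. The study assessed the knockdown in other ways, by its efficiency in KPC cells and by Zeb1 staining of tumours. In the classes that were not tumour-like, the Zeb1 ratio lay between 0.966 in endothelial-like and 1.56 in monocyte-macrophage-like cells. The part of RNA from outside the cells in the Zeb1 ratios was not tested.

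Among the 6 genes, 5 had their highest level in a tumour-like class in both libraries, all of them in the Epcam-high class. Of 10635 genes with enough UMIs, 21% did so. Lama3, Itga3, Itgb4 and Fermt1 were set apart from the next class by intervals that did not overlap. Itga6 was level with endothelial-like cells, and Lamb3 was highest in granulocyte-like cells.

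**Figure D2:**
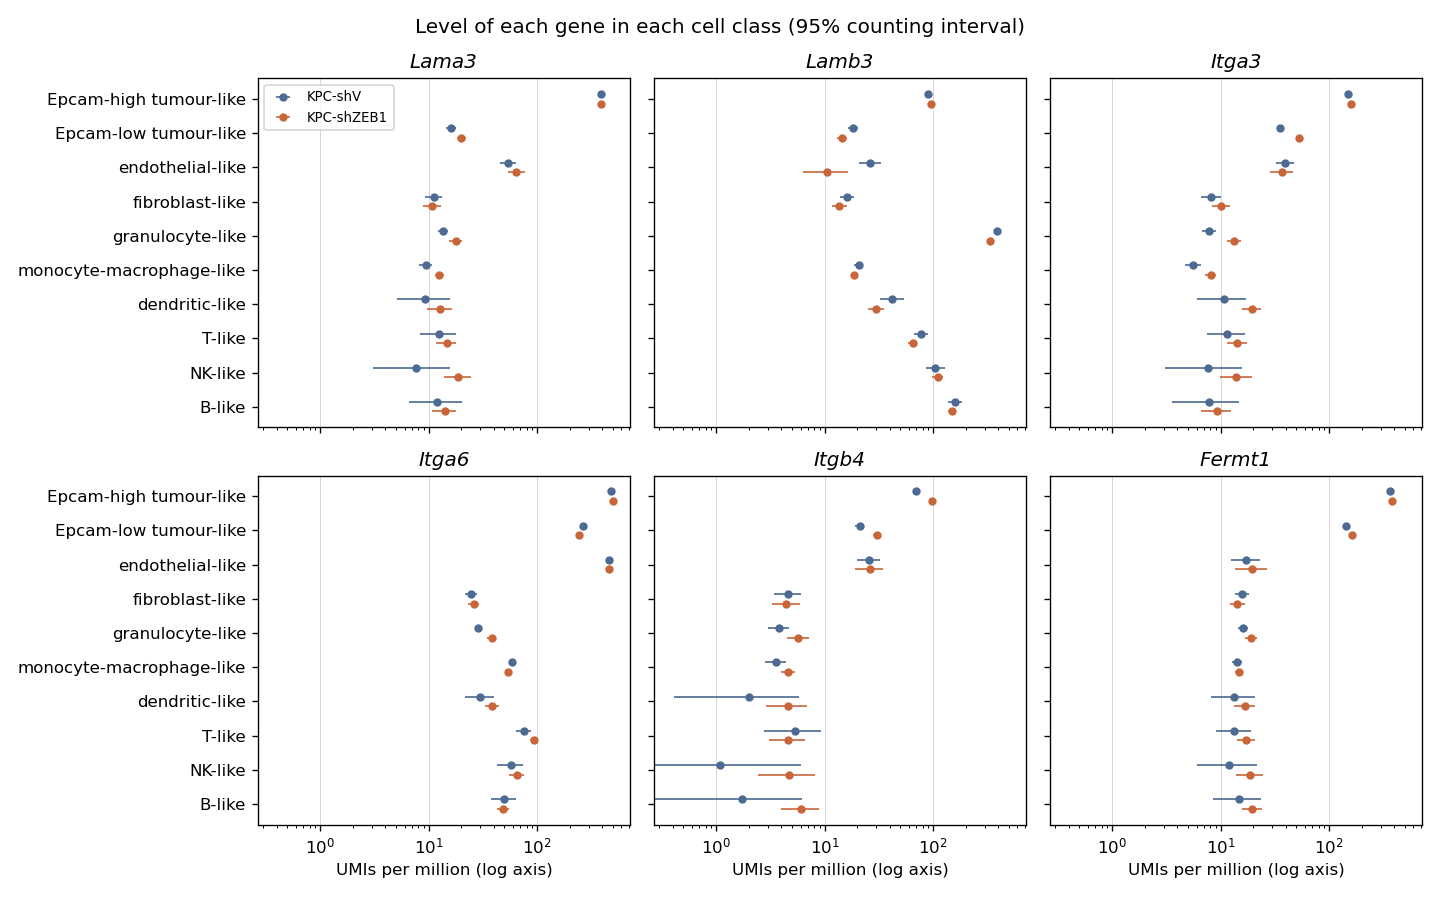
Level of each of the 6 genes in 10 cell classes, in CPM on a log axis, in the libraries labelled KPC-shV (blue) and KPC-shZEB1 (orange). Bars are 95% counting intervals, cut off at the left edge where they reach near 0. Epcam-high tumour-like cells lead for Lama3, Itga3, Itgb4 and Fermt1, endothelial-like cells sit beside them for Itga6, and granulocyte-like cells lead for Lamb3.

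Lama3 (chr18:12333819-12583013, forward strand), the alpha chain, was at 388 CPM (377 to 398) in Epcam-high cells of the KPC-shV-labelled library and at 386 (376 to 396) in the KPC-shZEB1-labelled library. Endothelial-like cells came next, at 54.1 and 64.6 CPM. All other classes, Epcam-low tumour-like cells included, lay between 7.67 and 20.03 CPM. Epcam-low cells, at 16.1 and 20.03 CPM, had intervals that overlapped those of granulocyte-like cells, at 13.6 and 17.8 CPM. They lay above fibroblast-like cells, at 11.2 and 10.8 CPM, and monocyte-macrophage-like cells, at 9.44 and 12.6 CPM, and their clusters differed widely in Lama3. Epcam-high cells held 80.8% and 76.5% of all Lama3 UMIs. They were 4.15% and 4.28% of the cells, but they were deep. Their UMIs of all genes were 13213090 of 101201508 and 14030011 of 118943000 in the 2 libraries.

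Lamb3, the beta chain, was measured in a different set of cells. It was at 385 CPM (377 to 393) and 335 CPM (325 to 345) in granulocyte-like cells. B-like cells had 160 and 148 CPM and NK-like cells 105 and 111 CPM, against 89.5 and 96.5 CPM in Epcam-high tumour-like cells and 77.2 and 65.0 CPM in T-like cells. NK-like and Epcam-high cells did not differ beyond their intervals in either library. Monocyte-macrophage-like cells, at 20.7 and 18.8 CPM, and fibroblast-like cells, at 16.1 and 13.7 CPM, had little, and Epcam-low tumour-like cells were no higher, at 18.3 and 14.5 CPM. Granulocyte-like cells held 75.4% and 50.8% of its UMIs.

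Depth hides this order in shares of cells. Lamb3 had a UMI in 59.8% and 52.8% of granulocyte-like cells and in 58.8% and 60.0% of Epcam-high cells, whose median depths were 3147 and 2912 against 27701 and 25747 UMIs. With every cell thinned to 1000 UMIs granulocyte-like cells had shares of 29.1% and 25.0%, B-like cells of 14.5% and 14.2%, Epcam-high cells of 8.88% and 7.92%, and Epcam-low cells of 2.91% and 1.61%. No cell of these classes was too shallow to be thinned. Fibroblast-like cells, which are not a known source of this chain, were at 1.66% and 1.84% after thinning (median depths 29139 and 28011 UMIs).

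The neighbours of Lamb3 moved with it in part. G0s2, a lipase inhibitor abundant in neutrophils, was at 7503 and 6085 CPM in granulocyte-like cells and at 134 to 376 CPM in the other classes of at least 50 cells. Hsd11b1, a glucocorticoid-activating enzyme, was highest in the same cells, at 282 and 218 CPM. Traf3ip3 was at 139 and 119 CPM in B-like, 105 and 103 CPM in NK-like and 83.0 and 99.6 CPM in T-like cells, but at 12.1 and 25.3 CPM in granulocyte-like cells. In Epcam-high cells G0s2 was at 263 and 134 CPM and Traf3ip3 at 1.59 and 3.64 CPM. Among the 6 granulocyte-like clusters, Lamb3 lay between 282 and 724 CPM. The cluster with the most G0s2, led by Retnlg and S100a9, had 12380 and 10014 CPM of it and 290 and 294 CPM of Lamb3. A cluster led by Mreg and Ero1l had 3911 and 2743 CPM of G0s2 and 429 and 432 CPM of Lamb3. The highest Lamb3 levels, 724 and 577 CPM, were in a cluster of 80 and 24 cells. Which transcript gave these UMIs, and the part of reads from the neighbours, was not tested.

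Of the receptors, Itga6 was at 477 CPM (465 to 489) and 502 CPM (491 to 514) in Epcam-high cells and at 462 CPM in endothelial-like cells of both libraries, with intervals that overlapped. Epcam-low cells, at 265 and 242 CPM, were well above T-like cells, the next class, at 75.5 and 93.5 CPM. Itgb4, the partner of Itga6 in hemidesmosomes, was at 69.5 and 98.3 CPM in Epcam-high cells, 21.1 and 30.4 CPM in Epcam-low cells and 25.7 and 26.0 CPM in endothelial-like cells. It did not exceed 6.05 CPM elsewhere. Itga3 followed the same classes, with 149 and 158 CPM in Epcam-high cells, 35.3 and 52.3 CPM in Epcam-low cells and 39.5 and 37.0 CPM in endothelial-like cells.

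Fermt1 was found mainly in both tumour-like classes. Epcam-high cells had 364 and 377 CPM and Epcam-low cells 142 and 163 CPM, and the other 8 classes lay between 12.1 and 19.5 CPM. Epcam-high cells held 54.3% and Epcam-low cells 34.4% of its UMIs in the KPC-shV-labelled library, and 53.2% and 33.1% in the KPC-shZEB1-labelled library. Endothelial-like cells, which shared Itga6 and some Lama3 and Itga3, had Fermt1 at 17.2 and 19.3 CPM, within the range of the immune classes.

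The difference between Epcam-high and Epcam-low cells was graded by gene. Lama3 was 24.0-fold (21.5 to 26.9) and 19.3-fold (17.4 to 21.4) higher in Epcam-high cells, Lamb3 4.89-fold and 6.65-fold, Itga3 4.22-fold and 3.03-fold, and Itgb4 3.29-fold and 3.23-fold. Fermt1 was 2.56-fold and 2.32-fold higher, and Itga6 1.80-fold (1.74 to 1.86) and 2.07-fold (2.00 to 2.15). Thus 5 of 6 genes were at least 2-fold higher in both libraries, against 5.11% of 14371 genes with enough UMIs. The median over the 6 genes was 3.72-fold and 3.13-fold, while on the log2 scale the median of all genes was -0.02 and -0.00464. Lama3 and Lamb3 in Epcam-low cells overlapped or lay near the levels of non-tumour classes, and the part of RNA from outside the cells in these ratios was not tested. The split itself decides this result at another resolution: at resolution 0.5 only the 34 cells led by Mmp7 counted as Epcam-high, and Lama3 was then 0.201-fold and 0.125-fold of the level in Epcam-low cells.

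The Epcam-low class was not uniform. A cluster of 211 and 196 cells led by Ugt2b34, Ugt2b5 and Spink4 had Epcam at 67.8 and 103 CPM but Fermt1 at 406 and 421 CPM and Itga6 at 561 and 501 CPM, against 364 and 387 CPM and 481 and 519 CPM in the main Epcam-high cluster. Its Itgb4, at 50.4 and 59.3 CPM, lay below the 69.9 and 99.3 CPM of the Epcam-high cluster. Its Lama3, at 15.7 and 32.1 CPM, was far below the 393 and 401 CPM there. High Itga6 and Fermt1 thus went with low Lama3 in these cells.

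A cluster of 495 and 200 cells was led by Prg4, Cntn5 and Grem1, with only 3 tumour markers detected. Its Epcam, at 21.2 and 26.6 CPM, was near that of fibroblast-like cells, at 26.1 and 25.9 CPM. It had less of all 6 genes than the main Epcam-high cluster. Its Fermt1 was at 31.2 and 43.3 CPM, its Itga6 at 146 and 115 CPM, its Itga3 at 28.2 and 34.9 CPM and its Itgb4 at 8.24 and 16.5 CPM. Its Lama3 (11.4 and 13.8 CPM) and Lamb3 (14.6 and 11.6 CPM) were in the range of fibroblast-like cells. A cluster led by Zfp804b and Ralyl had 9 cells in the KPC-shV-labelled and 230 in the KPC-shZEB1-labelled library, where it had 55.5 CPM of Fermt1, 147 CPM of Itga6 and 49.9 CPM of Itga3. A shallow cluster of 224 and 243 cells, led by Dbf4 and S100a14 and with a median of 2178 UMIs, had Epcam at 511 and 343 CPM. Its Lama3, at 112 CPM (89.5 to 139) and 46.7 CPM (33.9 to 62.7), and its Lamb3, at 66.4 and 31.8 CPM, were higher than in the 3 Epcam-low clusters just described, although its Lama3 interval overlapped that of the Ugt2b34 cluster (27.8 to 36.9) in the KPC-shZEB1-labelled library. It had 158 and 107 CPM of Itga6, 69.1 and 70.02 CPM of Itga3, 21.7 and 42.4 CPM of Itgb4 and 69.1 and 71.1 CPM of Fermt1. The remaining Epcam-low cells were the 23 with 551 CPM of Epcam. In the Epcam-high class, the 34 cells led by Mmp7 had Lama3 at only 31.4 and 21.3 CPM, so Epcam and Lama3 did not run together there.

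**Figure D3:**
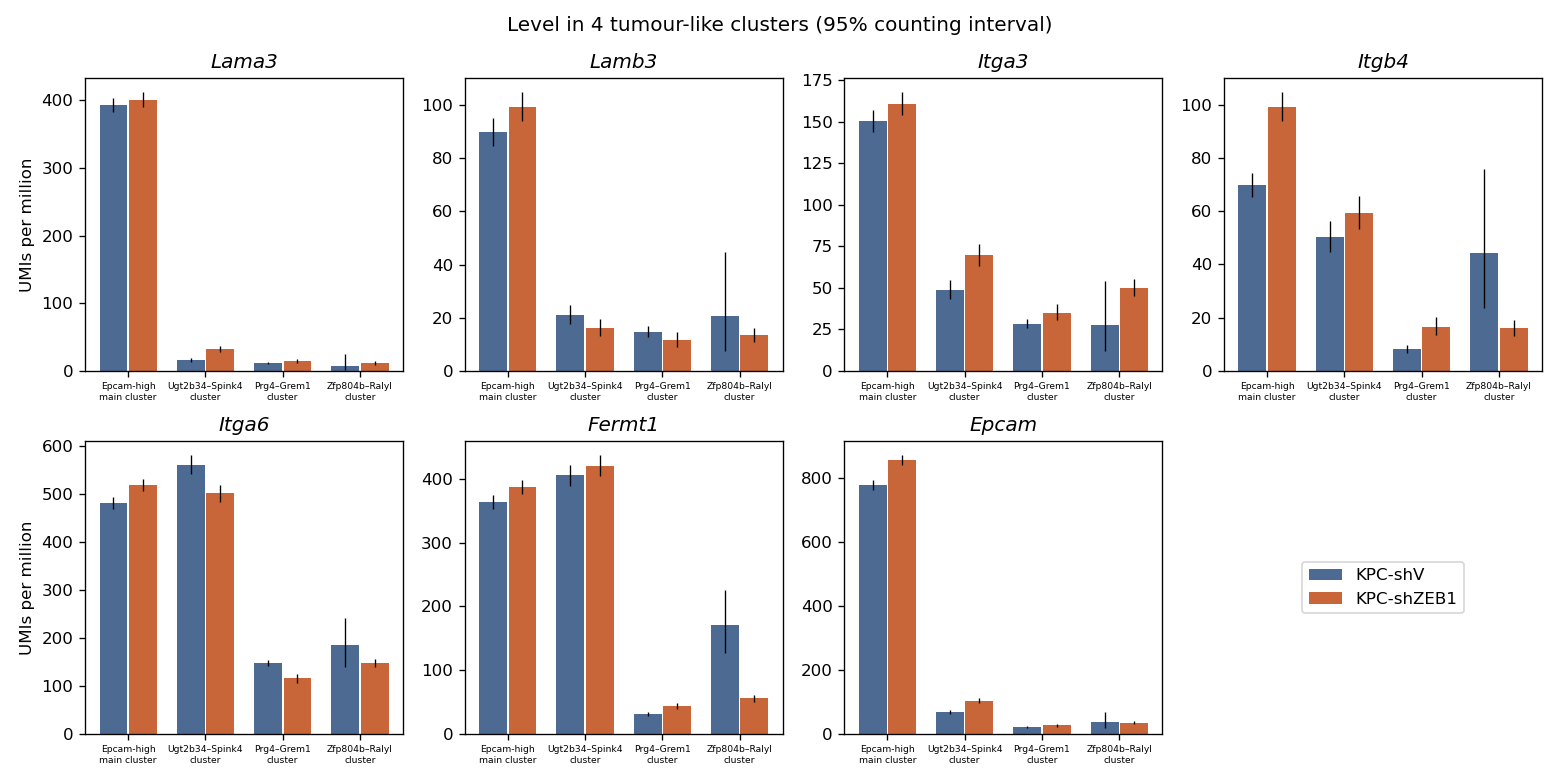
Levels in CPM in the 4 tumour-like clusters of the highest depth, in the libraries labelled KPC-shV (blue) and KPC-shZEB1 (orange), with 95% counting intervals and axes from 0. The Ugt2b34–Spink4 cluster is near the main Epcam-high cluster in Fermt1 and Itga6 but far below it in Lama3, Lamb3 and Itga3, and the Zfp804b–Ralyl bar of the KPC-shV-labelled library rests on 9 cells.

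Within the tumour-like classes, which the clusters had set, cells could also be grouped by their own Epcam UMIs. Tumour-like cells were thinned to 5000 UMIs and grouped by the Epcam UMIs among them. Lama3 was at 37.7 and 27.9 CPM in cells with 0 Epcam UMIs, at 134 and 132 CPM with 1 to 2, at 400 and 413 CPM with 3 to 5, and at 540 and 567 CPM with 6 or more. Lamb3 went from 22.0 and 15.1 CPM to 119 and 158 CPM over the same groups. Fermt1, in contrast, was already at 319 CPM with 1 to 2 Epcam UMIs in the KPC-shV-labelled library and at 329 CPM with 6 or more, and Itga6 was at 446 and 496 CPM. In the KPC-shZEB1-labelled library Fermt1 went from 238 to 374 CPM and Itga6 from 343 to 531 CPM over those groups. Cells of 1 library are not replicates, and this is a description of 2 libraries.

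**Figure D4:**
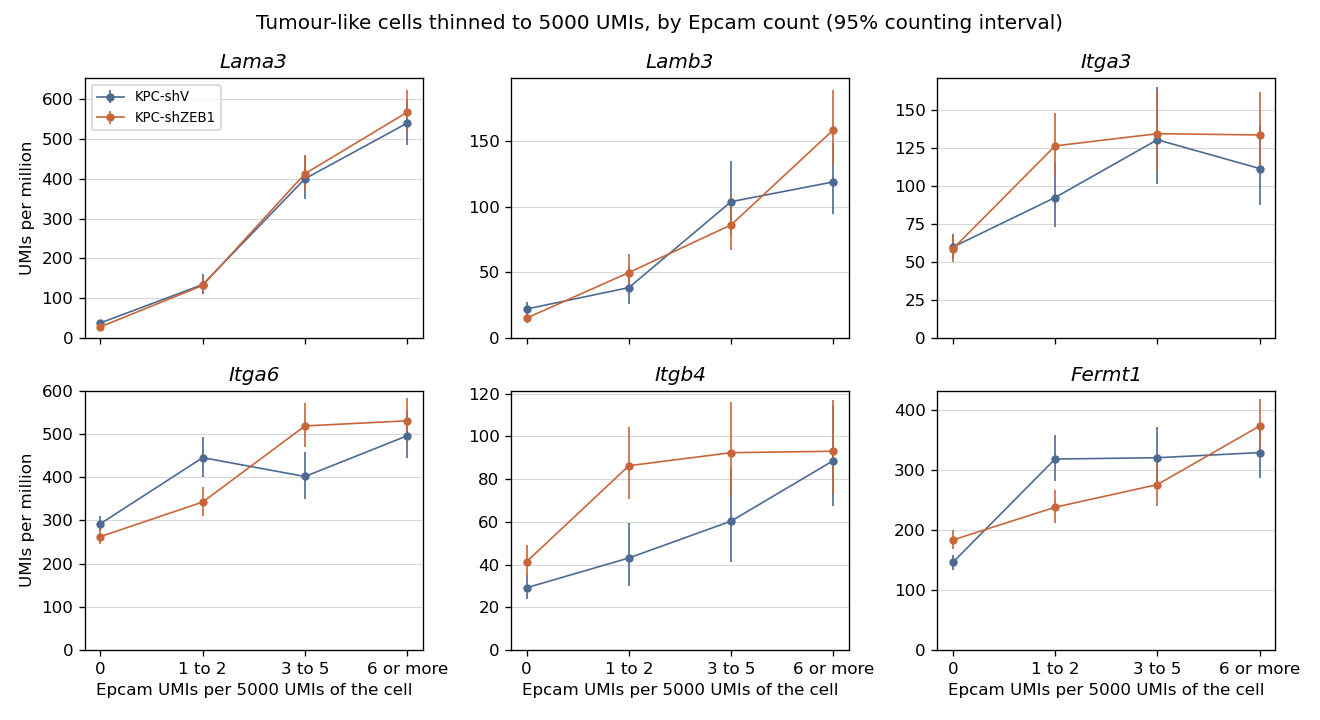
Levels in CPM of the 6 genes in tumour-like cells thinned to 5000 UMIs, by the number of Epcam UMIs left in the cell, in the libraries labelled KPC-shV (blue) and KPC-shZEB1 (orange), with 95% counting intervals. Cells with fewer than 5000 UMIs are left out. Lama3 is higher in each further Epcam group, while Itga6 and Fermt1 are at 146 to 293 CPM in cells without an Epcam UMI.

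Single cells of the main Epcam-high cluster, thinned to 5000 UMIs, held UMIs of a median of 3 of the 6 genes in both libraries. The median was 2 in the Ugt2b34 cluster and 1 in the Prg4 cluster, where 41.2% and 40.1% of cells had none. Of Epcam-high cells with a Lama3 UMI, 37.6% and 35.1% had a Lamb3 UMI, against 16.3% and 21.5% of those without one. For the hemidesmosome pair, 30.3% and 40.4% of cells with Itga6 had Itgb4, against 14.9% and 29.4% of cells without Itga6. Other pairs did not go together in this way. Itgb4 was found in 27.3% and 40.9% of cells with Lamb3 and in 26.8% and 37.3% of those without, and Itga6 in 74.6% and 85.04% of cells with Itga3 and in 81.1% and 77.8% of those without.

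Between the libraries the 6 genes differed little in Epcam-high cells. None passed 1.5-fold in either direction, where 11.1% of 14251 genes were at least 1.5-fold higher and 3.68% at least 1.5-fold lower in the KPC-shZEB1-labelled library. Itgb4 differed most, at 69.5 against 98.3 CPM (ratio 1.41, 1.30 to 1.54). Itga6 had a ratio of 1.05 (1.02 to 1.09), and Itga3 (1.06), Lamb3 (1.08) and Fermt1 (1.04) had intervals that began at 1.0002, 0.997 and 0.996. Lama3 had a ratio of 0.995 (0.958 to 1.03). So 5 of 6 ratios were above 1, as were 58.6% of all genes, and the median over the 6 was 1.06 where that of all genes was 1.04. Under the 17 alternative settings tried, a gene passed 1.5-fold in this class only at resolution 0.5, where 4 did on 7 and 27 cells.

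**Figure D5:**
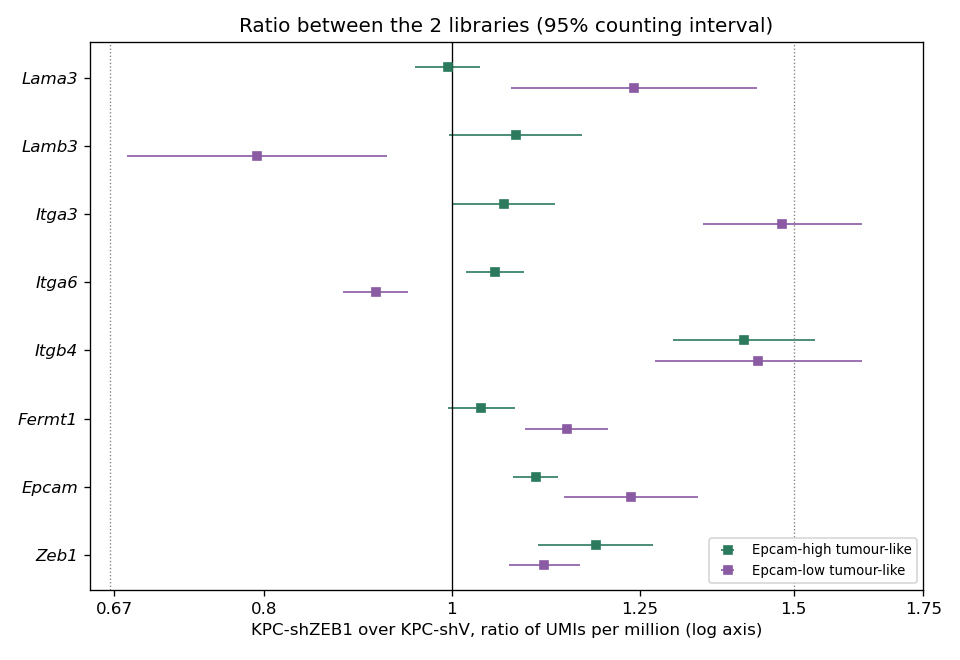
Ratio of CPM in the KPC-shZEB1-labelled library to that labelled KPC-shV (log axis) in Epcam-high (green) and Epcam-low (purple) tumour-like cells, with 95% counting intervals; dotted lines mark 1.5-fold. No gene passes 1.5-fold, Itgb4 is higher in both classes, Itga6 and Lamb3 are lower only in the Epcam-low class, and Zeb1 is not lower in either.

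In Epcam-low cells none of the 6 passed 1.5-fold either, where 12.9% of 15149 genes were at least 1.5-fold higher and 5.29% lower. This count was not stable, since 1 to 4 of the 6 passed 1.5-fold under 12 of the 17 alternatives. Itga3 was at 35.3 against 52.3 CPM (ratio 1.48, 1.35 to 1.63) and Itgb4 at 21.1 against 30.4 CPM (1.44, 1.27 to 1.63). Fermt1 (1.15) and Lama3 (1.24, but 0.883 with the granulocyte-like level subtracted) were also higher, while Itga6 (0.914, 0.879 to 0.949) and Lamb3 (0.794, 0.680 to 0.925) were lower. The clusters that made up this class differed between the libraries. The Prg4 cluster was the largest part in the KPC-shV-labelled library, and the KPC-shZEB1-labelled library had similar numbers of cells in 4 clusters.

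Within clusters, Itgb4 had ratios of 2.00 (1.52 to 2.64) in the Prg4 cluster and 1.18 (1.01 to 1.38) in the Ugt2b34 cluster. Itga3 had ratios of 1.24 (1.04 to 1.47) and 1.43 (1.23 to 1.66) there, and Lama3 of 1.21 (0.918 to 1.59) and 2.04 (1.59 to 2.64). Itga6 was lower within both, at 0.786 (0.720 to 0.858) and 0.893 (0.850 to 0.938). In the shallow Dbf4 cluster Lama3 went the other way, at 0.415 (0.281 to 0.606), Lamb3 had a ratio of 0.480 (0.294 to 0.771), Itga6 of 0.676 (0.513 to 0.890), Itga3 of 1.01 (0.693 to 1.49) and Itgb4 of 1.96 (1.07 to 3.75). Without the 2 clusters that came almost only from 1 library the ratio of Itga6 over the class was 1.12, so the direction of the pooled value changed with the clusters included. Lamb3 had ratios of 0.796 (0.597 to 1.05) and 0.767 (0.583 to 1.01) in the Prg4 and Ugt2b34 clusters, with intervals that included 1. In granulocyte-like cells its ratio was 0.871 (0.840 to 0.903). The summed granulocyte markers in the tumour-like cells were also higher in the KPC-shV-labelled library. The part of granulocyte RNA in the Lamb3 ratios was not tested.

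RNA of other cell types differed between the libraries in both tumour-like classes. The summed level of the 8 granulocyte markers was 1251 against 623 CPM in Epcam-high cells and 1378 against 633 CPM in Epcam-low cells, with 1 of 8 higher in the KPC-shZEB1-labelled library. The 10 monocyte-macrophage markers were at 607 against 1673 CPM and 588 against 1700 CPM, and the 8 acinar markers at 52.5 against 276 CPM and 52.9 against 308 CPM. None of these markers was at 0 in Epcam-high cells of either library. Their part in the ratios above, that of Itgb4 included, was not tested.

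The other hemidesmosome genes did not share the difference between Epcam-high and Epcam-low cells. Of 5 genes, 4 had enough UMIs and none was 2-fold higher or lower in Epcam-high cells in either library, where 7.45% and 7.17% of genes were higher and 7.66% and 6.63% lower in the 2 libraries. Plec, the plectin that ties integrin beta4 to keratin, was 1.247-fold and 1.363-fold higher, and Dst, a plakin that in skin links keratin to hemidesmosomes, was at 0.756-fold and 0.787-fold of its level in Epcam-low cells. Plec was at 228 against 321 CPM in Epcam-high cells of the KPC-shV- and KPC-shZEB1-labelled libraries (ratio 1.41, 1.34 to 1.47). Cd151, a tetraspanin that binds laminin-binding integrins, and Erbin were within 1.3-fold. Col17a1, the transmembrane collagen of type I hemidesmosomes, had 3 and 9 UMIs in Epcam-high cells and 10 and 8 in Epcam-low cells.

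Among 8 genes for the integrin partner and adaptors, 1 was at least 2-fold lower in Epcam-high cells in both libraries, against 4.08% of genes. None was 2-fold higher, against 5.11% of genes. The lower gene was Fermt2, the kindlin of mesenchymal cells, at 34.0 and 33.9 CPM in Epcam-high against 97.3 and 109 CPM in Epcam-low cells (0.349-fold and 0.312-fold), the direction opposite to Fermt1. Itgb1, the partner of Itga3, was 1.23-fold and 1.14-fold higher, and Tln1, talin 1, was at 0.993-fold and 0.881-fold. Fermt3, the kindlin of blood cells, was at 8.48 and 12.8 CPM in Epcam-high cells and at 134 and 122 CPM in monocyte-macrophage-like cells. Between the libraries, Tln2 (1.83 in Epcam-high and 2.44 in Epcam-low cells) passed 1.5-fold in both classes and Fermt3 (1.51) in Epcam-high cells. The shares of all genes at least 1.5-fold higher were 11.1% and 12.9% in these classes.

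Of the 8 other laminin chains, 7 had enough UMIs, and none was 2-fold higher in Epcam-high cells, against 7.45% and 7.17% of genes. In the KPC-shV-labelled library 2 were at least 2-fold lower, Lamc1 and Lama2 (0.401-fold, 20 against 81 UMIs), against 7.66% of genes. In the KPC-shZEB1-labelled library 0 were, against 6.63%. Lamc1, a chain shared by most other laminins, was at 254 and 236 CPM in Epcam-high against 547 and 402 CPM in Epcam-low cells (0.464-fold and 0.586-fold). Lama5 was 1.29-fold and 1.37-fold higher, and Lamb1 was at 0.788-fold and 0.753-fold. Lama4, a chain of vessel walls, was at 359 and 425 CPM in endothelial-like and at 5.04 to 9.41 CPM in tumour-like cells. Between the libraries Lama4 passed 1.5-fold in both classes (1.78 and 1.71). Lama2, with 20 and 34 UMIs in Epcam-high cells, had a ratio of 1.60 (0.896 to 2.94). Of all genes with enough UMIs, 11.1% in Epcam-high and 12.9% in Epcam-low cells were at least 1.5-fold higher.

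Among 9 basement membrane and laminin-binding genes, 2 were 2-fold higher in Epcam-high cells in each library, against 7.45% and 7.17% of genes. Only Bcam passed in both libraries, where 5.11% of genes did. Bcam, a receptor for laminin alpha5, was 2.77-fold and 2.04-fold higher in both. Col7a1, the anchoring fibril collagen that binds laminin-332, was 2.23-fold and 1.31-fold higher. Nid2, at 0.984 to 2.35 CPM, was 2.38-fold higher in the KPC-shZEB1-labelled library, on 33 and 20 UMIs in Epcam-high and Epcam-low cells. In the KPC-shV-labelled library it was at 0.586-fold, on 13 and 36 UMIs. Nid1, Hspg2, Col4a1 and Col4a2 were lower in Epcam-high cells in both libraries, at 0.486-fold to 0.727-fold. Dag1, dystroglycan, was 1.26-fold and 1.35-fold higher, and Bmp1, a protease that trims laminin-332, was at 0.772-fold and 0.663-fold.

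Of 8 other integrin subunits, Itgb6, the epithelial receptor subunit that activates TGF-beta, was at 44.4 and 38.5 CPM in Epcam-high against 5.74 and 11.8 CPM in Epcam-low cells (7.73-fold and 3.25-fold). Itga2, of the collagen receptor, was 1.83-fold and 1.747-fold higher. Itga5, of the fibronectin receptor, was at 0.476-fold and 0.424-fold. Itgb8 was at 1.74 against 6.06 CPM between the libraries in Epcam-high cells and at 20.1 against 6.81 CPM in Epcam-low cells. Itgb6 was at 5.74 against 11.8 CPM in Epcam-low cells (2.06, 1.65 to 2.59). Of the 8, 1 was at least 2-fold higher in Epcam-high cells in each library, against 7.45% and 7.17% of genes. In the KPC-shV-labelled library 2 were at least 2-fold lower and in the KPC-shZEB1-labelled library 1, against 7.66% and 6.63%. Between the libraries 1 was at least 1.5-fold higher in each class, against 11.1% and 12.9% of genes. In Epcam-low cells 1 was at least 1.5-fold lower, against 5.29%. No test was run on the lists.

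Across 20 points, the 10 classes in each of the 2 libraries, the genes closest to each member by Pearson correlation of log2(CPM + 1) were taken for each member. The points share their libraries and, for related classes, their cells of origin, so these values are a description. Fermt1 was closest to the keratin genes Krt18 and Krt8 (r = 0.995 for both), then Wfdc2 (0.990), Prom1 (0.987) and Tm4sf4 (0.986). Lama3 was closest to Marveld3 (0.936), a tight junction gene, Mal (0.931), Prl2c3 (0.908), Lmo7 (0.907) and Itga3 (0.904). Itga3 was closest to Dsg2 (0.958), a desmosomal cadherin, 2700054A10Rik (0.951), Lmo7 (0.95), Itgb4 (0.95) and Npnt (0.937). Itgb4 was closest to Usp43 (0.962), Plpp2 (0.953), B3gnt3 (0.95), Itga3 (0.95) and Lmo7 (0.948). Itga6 was closest to Kcnq1 (0.948), Cdh13 (0.94), Nav2 (0.935), Fgd6 (0.925) and Mecom (0.923). Lamb3 was closest to Mirt1 (0.932), Zfp292 (0.913), Adgre5 (0.898), a leukocyte adhesion receptor, Dedd2 (0.895) and 5830428M24Rik (0.893). Its correlation with the 5 other members lay between -0.235 and 0.057. The order depended on the measure. By Spearman (rank) correlation, the 5 closest genes of Fermt1, Itga6 and Itgb4 had none in common with those named above. Mirt1 stayed first for Lamb3 (rho = 0.949). Lama3 and Fermt1 were then among the closest genes of each other (rho = 0.905).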

How the data were processed

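The deposited matrices hold raw UMI counts, which Cell Ranger 7.0.1 had produced for the authors on mm10 from 10x 3′ libraries (submitters' processing notes, study methods). Following the study's filters, a cell was retained with 500 or more genes, between 1000 and 60000 UMIs and no more than 15% mitochondrial UMIs. Scrublet scores above 0.2 removed 315 and 343 cells as doublets. Both libraries were clustered together without alignment (scanpy 1.11.5, leidenalg 0.10.2, 3000 variable genes lacking the listed genes, 30 components, 20 neighbours, resolution 1), and clusters were named from 18 marker lists. UMIs were summed by class and library and scaled (CPM). Intervals are exact Poisson (levels), exact conditional binomial (ratios) and Clopper-Pearson (shares). A ratio was counted with 30 UMIs or more over both sides. Named genes are the 6 members, 5 related gene lists, Zeb1, Epcam and the 5 genes most like each member among those reaching 20 CPM in a class. The neighbours of Lamb3 and single clusters were added after values were seen. Members and lists were chosen with earlier results of these data known. Some genes of the lists are not reported here. Interval code was tested on simulated data. Of the 32285 gene IDs, 32235 matched GENCODE M21.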

Additional observations from a re-analysis of the deposited data

Results flagged for a closer look

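Itga6 had ratios on either side of 1 between the libraries in the tumour-like classes. Its ratio, the KPC-shZEB1-labelled library over that labelled KPC-shV, was 1.05 in Epcam-high cells and 0.914 in Epcam-low cells, and both counting intervals left out 1. The median of all genes was 1.04 in Epcam-high cells, inside the interval of Itga6 there (1.02 to 1.09), and 1.02 in Epcam-low cells, above that of Itga6 (0.879 to 0.949). With 1 library per group the difference between these ratios was not tested.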

How the results depend on the processing

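With 1 library per group, no library could be left out and no paired analysis was possible because a single pair of libraries leaves no replicate within a group. The number of genes highest in a tumour-like class (5) was 4 or 5 under all alternatives run, and the number higher in Epcam-low cells of the KPC-shZEB1-labelled library (4) was 3 to 6. The number at least 2-fold higher in Epcam-high cells of both libraries (5) was 3 with no upper UMI limit, at resolution 2 (also with the Epcam limit set by clusters of at least 100 cells) and with each library clustered alone, 2 with cells split by an Epcam UMI, and 0 at resolution 0.5. At that resolution 7 and 27 cells were Epcam-high, and Epcam-high over Epcam-low ratios below 1 were 0.201 and 0.125 for Lama3, 0.625 and 0.325 for Itga6, and, in the KPC-shZEB1-labelled library, 0.592 for Lamb3 and 0.519 for Fermt1. With the limit set by clusters of at least 100 cells it was 6 of 6 at resolution 0.5. The number higher in Epcam-high cells of the KPC-shZEB1-labelled library (5) was 3 with cell minimums of 200 genes and 500 UMIs, at resolution 2 (with either limit) and with each library alone, and 2 at resolution 0.5 and with cells split by an Epcam UMI. Between libraries, Itga6 in Epcam-high cells turned to 0.529 at resolution 0.5, 0.992 there with the other limit and 0.990 with cells split by an Epcam UMI. In Epcam-low cells Itga6 turned to 1.02 at resolution 0.5, 1.04 with each library alone and 1.12 without the clusters of 1 library. Lamb3 there turned to 1.02 with no upper UMI limit, 1.07 at resolution 0.5 and 1.14 with each library alone. Lama3 there turned to 0.878 as a mean over cells, 0.883 after subtraction of the granulocyte-like level, 0.923 at resolution 0.5 with the other limit and 0.910 without the Ugt2b34 cluster. A ratio past 1.5-fold between the libraries, absent in both classes as reported, was seen in Epcam-low cells for Itgb4 (up to 1.86), Lama3 (1.77), Fermt1 (1.60), Itga3 (1.56) and Lamb3 (down to 0.561), and in Epcam-high cells, at resolution 0.5 alone, for Itgb4 (1.78), Itga6 (0.529), Lamb3 (0.451) and Fermt1 (0.343). The cause was not tested. The other Epcam limit and the removal of the Ugt2b34 cluster were chosen after seeing the data.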

Other observations

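Itga6, also known as CD49f, was unevenly spread over T-like clusters. The cluster led by Lef1, a factor of naive T cells, had 104 and 161 CPM in the KPC-shV- and KPC-shZEB1-labelled libraries, and the 3 other T-like clusters had 41.6 to 74.4 CPM. Among monocyte-macrophage-like clusters, the cluster led by F13a1 and Ccl8 had 84.2 and 72.7 CPM, against 50.7 and 49.3 CPM in the cluster led by Mmp12. These clusters were chosen after their values were seen.

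A cluster of 7 and 272 cells that carried both acinar and granulocyte transcripts was left unnamed. In the KPC-shZEB1-labelled library it had 318 CPM of Lamb3 (279 to 361), near the 335 CPM of granulocyte-like cells, and 9.43 to 35.0 CPM of the other 5 genes.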
